A study of Mus musculus with 10 samples.

Results

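A set of 9 genes of inflammatory signalling, Il1b, Il1rn, Il6, Tnf, Ltb, Csf1, Ptgs2, Tnfaip2 and Saa3, was followed in the aortic arch of atherosclerosis-prone mice with and without the adaptor MyD88. The members were taken by the gene symbol that the platform annotation gives a probe, which found 9 genes on 11 probes among 11130 genes with a single symbol and 13872 probes. The double-null mice lacked apolipoprotein E and MyD88 (ApoE-/-,MyD88-/-), and the apoE-null mice lacked apolipoprotein E alone (ApoE-/-), so that every animal carried the ApoE deletion and no wild type was included. Each array carried RNA of 1 double-null and 1 apoE-null mouse in the opposite channels, and 5 such mouse pairs were each hybridised on 2 arrays with the channels exchanged, which gave 10 arrays. Both mice of pair 1 were female and both mice of pairs 2, 3 and 4 were male. In pair 5 the double-null mouse was male and the apoE-null mouse female, so that genotype and sex cannot be told apart within that pair. A high fat diet of 8 weeks is stated for 8 arrays, and the same mice stood on the partner arrays of the other 2. The sources used here give no ages. By its title the study is about less atherosclerosis when MyD88 is missing, and the question put to these genes was whether their transcripts differed between the genotypes.

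MyD88 couples the interleukin-1 and interleukin-18 receptors and most Toll-like receptors to kinases that release the transcription factor NF-kB from its inhibitors. The cytokines Il1b, Il6, Tnf, Ltb and Csf1, the enzyme Ptgs2 and the acute phase protein Saa3 are commonly switched on along this route, and several of their receptors signal back to NF-kB. In plaques such mediators come from macrophages, lymphocytes, smooth muscle and endothelium, and tissue arrays read all of these cells together, so that fewer cells of a type and less RNA per cell cannot be told apart.

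The promoters of 4 members are shown because these genes carry the results below: Ltb passed the test, Ptgs2 was read on every array, and Il6 and Saa3 were read mainly in the pairs where Ptgs2 was below 0. Each window runs from 250 bases before to 50 bases after the gene start in the RefSeq table of build GRCm38.p6 and is written in the direction of the gene, at chr17:35194257-35194556 (+) for Ltb, chr5:30012864-30013163 (+) for Il6, chr1:150099781-150100080 (+) for Ptgs2 and chr7:46715627-46715926 (-) for Saa3. Capitals mark the letters that matched 1 of 4 motifs on either strand: the NF-kB consensus, AP-1 (TGANTCA), the CRE core (TGACGT) and C/EBP (TTGCNNAA).
Ltb: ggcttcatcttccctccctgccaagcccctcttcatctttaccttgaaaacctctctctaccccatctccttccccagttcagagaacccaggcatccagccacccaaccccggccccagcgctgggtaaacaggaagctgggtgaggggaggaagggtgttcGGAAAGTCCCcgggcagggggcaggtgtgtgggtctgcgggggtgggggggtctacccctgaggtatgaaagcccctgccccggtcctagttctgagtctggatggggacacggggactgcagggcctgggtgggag
Il6: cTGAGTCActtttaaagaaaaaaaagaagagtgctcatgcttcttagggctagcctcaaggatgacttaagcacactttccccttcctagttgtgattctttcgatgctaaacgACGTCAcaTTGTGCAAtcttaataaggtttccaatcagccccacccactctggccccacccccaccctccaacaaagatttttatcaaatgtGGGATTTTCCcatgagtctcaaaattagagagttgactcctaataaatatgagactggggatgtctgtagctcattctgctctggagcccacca
Ptgs2: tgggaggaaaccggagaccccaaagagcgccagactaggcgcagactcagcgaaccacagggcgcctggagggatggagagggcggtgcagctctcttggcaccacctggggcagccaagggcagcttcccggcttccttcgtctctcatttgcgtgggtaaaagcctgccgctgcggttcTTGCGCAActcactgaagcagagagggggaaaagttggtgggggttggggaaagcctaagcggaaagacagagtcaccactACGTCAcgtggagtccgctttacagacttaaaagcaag
Saa3: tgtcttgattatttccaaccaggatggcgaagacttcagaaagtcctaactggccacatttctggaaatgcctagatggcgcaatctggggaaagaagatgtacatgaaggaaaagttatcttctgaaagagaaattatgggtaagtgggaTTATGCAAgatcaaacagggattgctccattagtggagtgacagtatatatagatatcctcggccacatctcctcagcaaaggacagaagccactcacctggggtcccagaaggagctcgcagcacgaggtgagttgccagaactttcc
The Ltb window held an NF-kB match on the opposite strand, whose first base lay 87 bases before the start. The Il6 window held matches to all 4 motifs, at 249 (AP-1), 136 (CRE core), 128 (C/EBP) and 44 (NF-kB) bases before the start. The Ptgs2 window held a C/EBP match at 69 bases before the start and a CRE core just after it, and the Saa3 window held a C/EBP match at 99. Over all 9 members, matches to the NF-kB consensus stood in 4 genes (Il6, Ltb, Csf1 and Tnfaip2), to C/EBP in 3, and to AP-1 and the CRE core in 2 each. A member was counted if any of its windows matched, with 3 windows for Il1rn and 11 for all members. Among 32841 windows of the table, 8.46% held the NF-kB consensus, 7.81% AP-1, 7.51% the CRE core and 10.8% C/EBP. These shares are per window and the member counts per gene, so their units differ. These matches describe letters only, and the arrays did not measure binding.

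All values are log2 ratios of double-null over apoE-null, so that 0 is no difference and a negative value is a lower signal in the double-null mouse. The deposited tables left 49.1% to 67.0% of the probes of an array blank, so an array carried 4581 to 7057 values. Myd88, the deleted gene, was below 0 on every array, at -1.20, -0.68, -0.93, -1.11 and -1.01 in pairs 1 to 5 with the double-null mouse in channel 2, and at -0.91, -0.46, -0.70, -1.19 and -0.79 with it in channel 1 (mean -0.90 ± 0.22, SD, n = 5 pairs, limma adjusted p = 0.0248). Whether its probe lies in the deleted stretch is not known here. In the labels of pair 1, mice 7 and 8 carry exchanged genotypes on the partner arrays. The genotype labels were used, and the partner arrays of that pair correlated across probes with a Pearson's r of 0.56, against 0.04 to 0.46 in the other pairs. A dye effect, a ratio that differed between the channel orientations, was called for 231 of 4866 probes (4.75%), with 2.88% of tested probes higher and 1.87% lower where the double-null mouse was in channel 2.

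Of the 11 member probes, 3 carried a value on all 10 arrays, which was the case for 26.0% of all probes, and these belong to Ltb, Il1rn and Ptgs2. At least 1 value was present for 9 member probes, against 58.1% of all probes. The probe of Csf1, the growth factor of macrophages, and 1 of the Il1b probes (NM_008361) were blank throughout. Blank cells were unequal between the orientations: 20 of the 55 member cells (36.4%) were filled with the double-null mouse in channel 2, and 36 of 55 (65.5%) with it in channel 1. Over all probes the filled shares were 36.5% and 46.2%. The 3 member probes for Il1b (M15131), Tnf and Tnfaip2 had values in the channel 1 orientation only, as had 1783 probes of the array, whereas 209 probes and no member had values in the channel 2 orientation only. For these 3 genes no dye effect can be separated from the genotype.

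**Figure D1:**
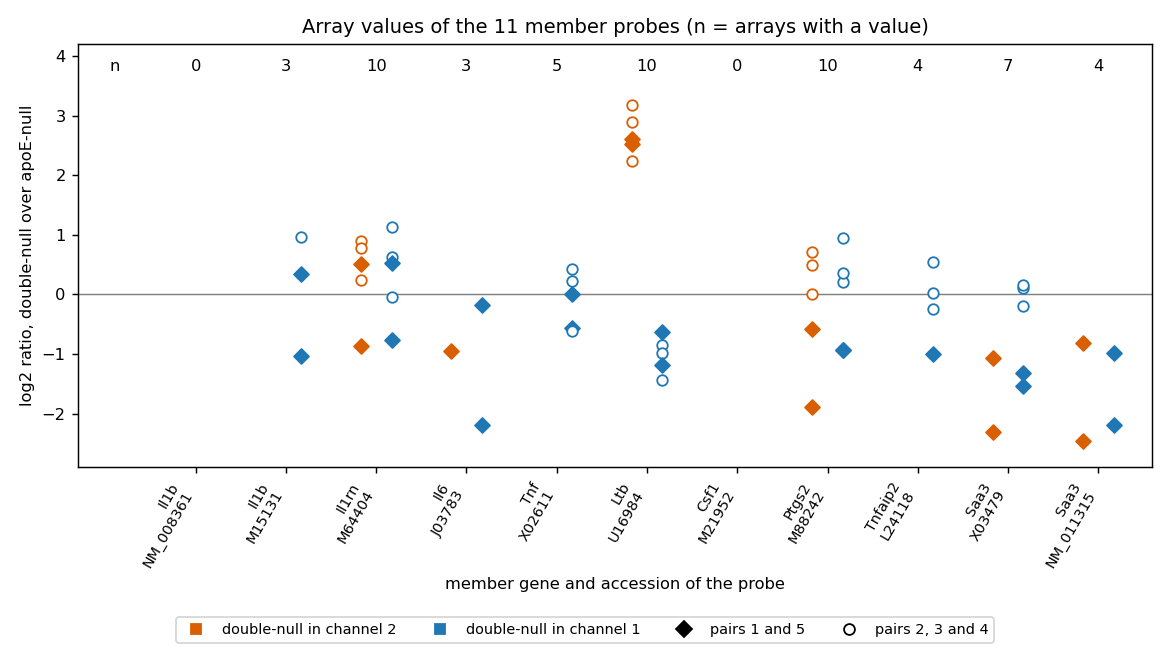
Deposited log2 ratios (vertical axis, double-null over apoE-null) of the 11 member probes (horizontal axis), 1 point per array, coloured by the channel of the double-null mouse, with diamonds for pairs 1 and 5 and circles for pairs 2, 3 and 4. The number above each probe is the count of arrays with a value, which runs between 0 and 10. Ltb lies between 2.24 and 3.18 in the channel 2 orientation and between -1.43 and -0.64 in the channel 1 orientation.

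Of the 3 members that could be tested, 1 passed an adjusted p of 0.05 in limma, read against 0.781% of the 4866 probes tested (38 probes, of which 29 were higher and 9 lower in double-null mice). That member was Ltb, lymphotoxin beta, a membrane-bound TNF family cytokine of lymphocytes that organises lymphoid tissue. On the channel 2 arrays of the double-null mouse its log2 ratio was 2.60, 3.18, 2.24, 2.90 and 2.52 in pairs 1 to 5. With the double-null mouse in channel 1 it was -0.64, -0.84, -0.97, -1.43 and -1.18. All arrays of one orientation were thus above 0 and all of the other below it, and the groups of arrays did not overlap. Such a gap was present in 2.96% of tested probes with channel 2 higher and in 2.08% with it lower, and 41.2% had orientation means of opposite sign.

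Averaging the partner arrays gave Ltb pair values of 0.98, 1.17, 0.63, 0.73 and 0.67, all above 0. Their mean was 0.84 ± 0.23 (SD, n = 5 pairs), a 1.79-fold higher ratio in double-null aortas, with a 95% interval of 0.56 to 1.12 and a limma adjusted p of 0.0283. The difference between the orientations was larger than the genotype value: 3.70 on the log2 scale, between 3.22 and 4.33 over the pairs, with a limma adjusted p of 1.51e-07 for the dye effect. It was the 14th highest of all tested probes. A pair mean cancels a dye effect only as far as that effect is equal on both arrays, and this was not tested. Taken alone, the channel 1 arrays gave Ltb a mean of -1.01 (limma adjusted p = 0.0265) and the channel 2 arrays gave 2.69 (limma adjusted p = 6.19e-05), so the direction rests on the balance of the orientations. Ltb also failed the threshold when any 1 pair was left out, with adjusted p between 0.0528 and 0.119.

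**Figure D2:**
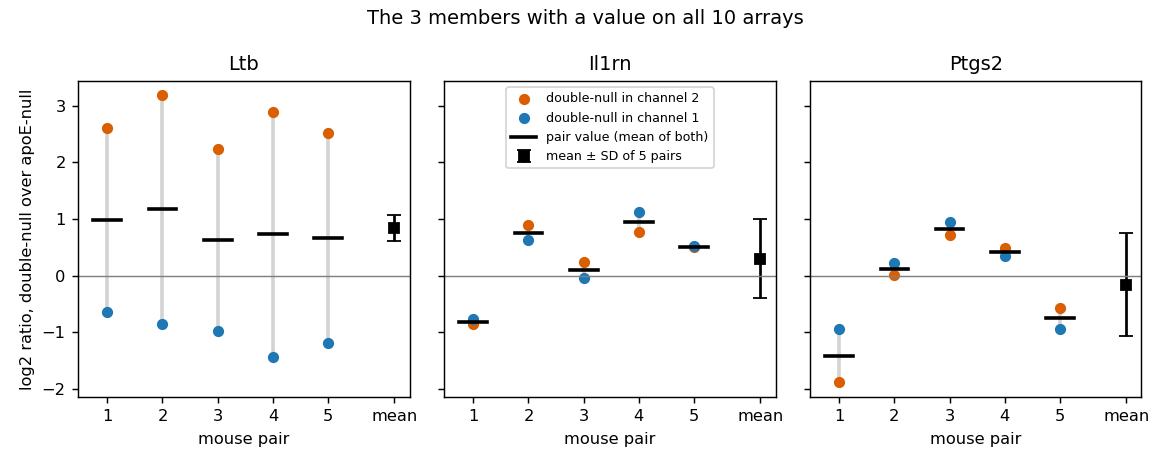
Log2 ratios of double-null over apoE-null (vertical axis) of Ltb, Il1rn and Ptgs2 in each mouse pair (horizontal axis), with a point for each orientation, a bar for the pair value and a square with the mean ± SD of 5 pairs. The Ltb orientations are 3.22 to 4.33 apart in every pair, and those of Il1rn are at most 0.35 apart.

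The other cytokines of this set gave too few values for a test over pairs. Tnf, the macrophage cytokine that signals through Tnfrsf1a and Tnfrsf1b, was read only with the double-null mouse in channel 1, at -0.57, 0.23, -0.61, 0.42 and 0.01 in pairs 1 to 5. These arrays fell on both sides of 0 and averaged -0.11 ± 0.47 (SD, n = 5 arrays). Il1b, the interleukin whose receptor uses MyD88 directly, had 3 values in that orientation: 0.34 in pair 1, 0.96 in pair 4 and -1.03 in pair 5. Their mean of 0.09 ± 1.02 (SD, n = 3 arrays) covers a spread of nearly 2 log2 units. Il6, which drives the acute phase response, had values in pairs 1 and 5 only. It stood at -0.94 in pair 5 with the double-null mouse in channel 2, and at -0.17 in pair 1 and -2.19 in pair 5 with it in channel 1. All 3 Il6 values were below 0, and the only pair read in both orientations, pair 5, gave -1.56.

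Their receptors were better covered. Tnfrsf1a, the main receptor for Tnf, had a mean log2 ratio of 0.07 ± 0.24 (n = 5 pairs, limma adjusted p = 0.856), and Tnfrsf1b had -0.15 ± 0.40 (n = 4, limma adjusted p = 0.757). Ltbr, which binds the lymphotoxin heterotrimer, had 0.15 ± 0.32 (n = 5, limma adjusted p = 0.717). Il6ra and Csf1r, which bind Il6 and Csf1, had -0.13 ± 0.46 and -0.17 ± 0.56 (n = 5 each, limma adjusted p of 0.795 and 0.764). None of these receptors passed the test, and errors here and below are SD over pairs.

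Il1rn, the secreted antagonist that occupies the interleukin-1 receptor without signalling, was read alike in both orientations. Its log2 ratio was -0.86, 0.90, 0.24, 0.78 and 0.51 in pairs 1 to 5 with the double-null mouse in channel 2, and -0.77, 0.62, -0.04, 1.13 and 0.52 with it in channel 1. The pair values were -0.81, 0.76, 0.10, 0.95 and 0.52, so that 4 of 5 pairs were above 0 and the female pair 1 was below it. The mean of 0.30 ± 0.70 (SD, n = 5 pairs) had a 95% interval of -0.25 to 0.85 and did not pass (limma adjusted p = 0.661). The partner arrays differed by at most 0.35 in any pair, and the dye effect (the orientation difference divided by 2) averaged 0.0098 ± 0.13 (limma adjusted p = 0.958). The spread of Il1rn was therefore between mouse pairs and not between arrays of a pair.

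Ptgs2, the inducible cyclooxygenase that makes the prostaglandin precursor, divided the pairs. With the double-null mouse in channel 2 its log2 ratio was -1.88, 0.02, 0.71, 0.49 and -0.58 in pairs 1 to 5, and with it in channel 1 it was -0.94, 0.22, 0.95, 0.36 and -0.93. Pairs 1 and 5 were below 0 and pairs 2, 3 and 4 above 0 in both orientations, without overlap. The pair values of -1.41, 0.12, 0.83, 0.42 and -0.75 averaged -0.16 ± 0.91 (SD, n = 5 pairs), with a 95% interval of -0.85 to 0.53 and no call (limma adjusted p = 0.850). Its dye effect averaged -0.09 ± 0.25 (limma adjusted p = 0.620), although in pair 1 the arrays were 0.95 apart. Without pair 1 the mean had the other sign, at 0.15.

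**Figure D3:**
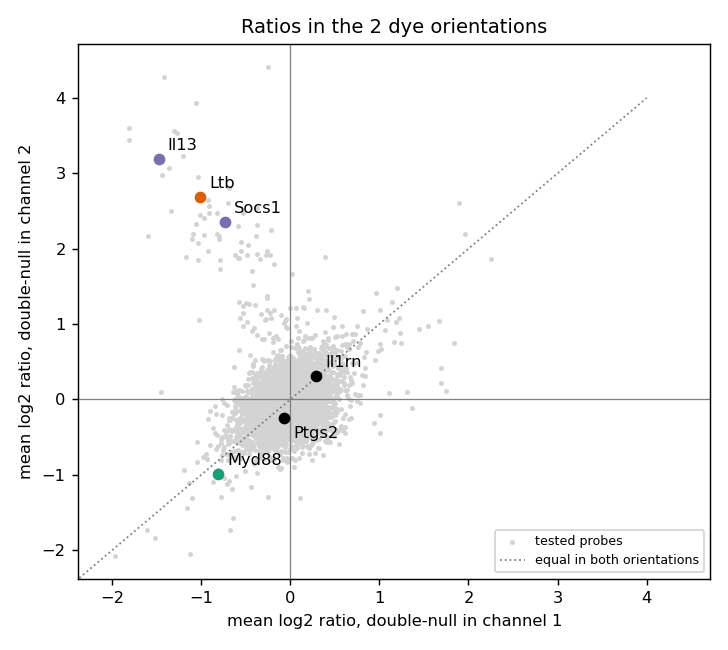
Mean log2 ratio of double-null over apoE-null with the double-null mouse in channel 2 (vertical axis) against that with it in channel 1 (horizontal axis) for 4866 tested probes, with the diagonal of equal values. Il1rn, Ptgs2 and Myd88 lie near the diagonal, and Ltb (2.69 and -1.01), Socs1 (2.35 and -0.74) and Il13 (3.20 and -1.48) lie far above it.

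Tnfaip2, a TNF-induced gene of endothelial and myeloid cells, had values with the double-null mouse in channel 1 only, at 0.54, -0.24, 0.03 and -0.999 in pairs 2 to 5. They averaged -0.17 ± 0.64 (SD, n = 4 arrays) and fell on both sides of 0.

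Saa3, an acute phase apolipoprotein made in mouse macrophages and adipose tissue, had 2 probes, which share a gene and are not replicates. Probe NM_011315 had values on the 4 arrays of pairs 1 and 5 alone: -2.45 and -0.81 with the double-null mouse in channel 2, and -2.19 and -0.99 with it in channel 1. Probe X03479 gave -2.31 and -1.06 in these pairs in the channel 2 orientation, and -1.31, 0.11, -0.20, 0.16 and -1.53 in pairs 1 to 5 in the channel 1 orientation. The 8 Saa3 values of pairs 1 and 5 lay between -2.45 and -0.81, and the 3 values of pairs 2, 3 and 4 between -0.20 and 0.16. The pair values of X03479 were -1.81 and -1.29 (mean -1.55 ± 0.37, SD, n = 2 pairs), and those of NM_011315 were -2.32 and -0.90 (mean -1.61 ± 1.01). On the same array the probes differed by between -0.55 and 0.88. With 2 pair values neither probe entered the test.

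Pairs 1 and 5 are those in which the apoE-null mouse was female. After these values were seen, the pairs with a female apoE-null mouse were therefore set against those with a male one in limma, over the 3612 probes with 5 pair values. Ptgs2 averaged -1.08 in the pairs with a female apoE-null mouse and 0.46 in those with a male one, a difference of -1.54. Since the split was drawn from the values of Ptgs2, Saa3 and Il6, this difference is a description and no test of it is given. Only 5 probes passed (0.138%), none of them a member, and 315 had an unadjusted p under 0.05. Non-overlap of these pairs was common, at 26.5% of probes: 16.3% were lower in both pairs with a female apoE-null mouse, and 10.2% higher. Il1rn averaged -0.15 and 0.60 in the same groups, with overlapping pairs and a difference of -0.75 (95% interval -1.76 to 0.25, limma adjusted p = 0.690). Ltb averaged 0.83 and 0.85, a difference of -0.02 (95% interval -0.62 to 0.58, limma adjusted p = 0.995).

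Other genes of inflammatory signalling divided the pairs as Ptgs2 did. They were picked for that pattern, so their values are a description. Tnfaip6, a secreted matrix protein induced by TNF, had pair values of -1.02 and -0.85 in pairs 1 and 5, against 0.88, 0.51 and 0.88 in pairs 2, 3 and 4 (difference -1.69). Nfkbia, the NF-kB inhibitor that NF-kB itself induces, had -0.94 and -0.86 against 0.11, 0.77 and 0.67. Cp, the acute phase protein ceruloplasmin, had -1.48 and -0.996 against 0.21, 0.09 and 0.08. Among 48 probes of the pathway lists with 5 pair values, 14 (29.2%) were lower without overlap in pairs 1 and 5, against 16.3% of all probes, and 5 (10.4%) were higher, against 10.2%. Of the 14, 10 changed sign at 0 as Ptgs2 did. These probes include the genes just named, and the shares are given without a test.

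The split followed more than a single variable. Pair 1 set females of both genotypes against each other, whereas in pair 5 the double-null mouse was male, and sex, the individual mice and the pair cannot be told apart with 2 pairs against 3. The female transcript Xist had values on the arrays of pairs 1 and 5 alone, where its probes lay between -0.77 and -0.45 in pair 1 and between -5.29 and -3.23 in pair 5. Only 3 probes of the array (0.0216%) were filled on exactly those 4 arrays, both Xist probes and Saa3 NM_011315. These arrays were singled out after the Saa3 values were seen, so the share is a description. No share was computed for other sets of 4 arrays. The other Saa3 probe, X03479, also had values in pairs 2, 3 and 4, at 0.11, -0.20 and 0.16 in the channel 1 orientation. With pair 1 alone as the female pair against pairs 2, 3 and 4, the comparison chosen from the labels, Ptgs2 differed by -1.87 (95% interval -2.66 to -1.07, limma adjusted p = 0.0611) and Il1rn by -1.41 (95% interval -2.27 to -0.56, limma adjusted p = 0.117). Neither passed, with 0.265% of 3775 probes called, and the spread of the lone female pair was assumed to equal that of the male pairs. Of 9 cell type marker lists, 7 had pair medians that did not overlap between pairs 1 and 5 and pairs 2, 3 and 4, of which 5 were lower in pairs 1 and 5 and 2 higher. Non-overlap was not particular to marker lists. Among the pathway lists, those of NF-kB, the IL-6 family, acute phase genes and other interleukins were lower in pairs 1 and 5 without overlap. The IL-1 and IL-18 list was higher there, narrowly, with -0.40 in pair 1 next to -0.42 in pair 4. The Toll-like receptor, TNF superfamily, colony-stimulating factor and prostanoid lists overlapped. Among single probes, an unlike base for list medians, 26.5% did not overlap. The red cell list rested on 2 tested genes, and the lymphocyte and muscle lists on 4 each. The endothelial list had medians of -0.81 and -0.13 in pairs 1 and 5, against 0.0056, 0.03 and 0.09 in pairs 2, 3 and 4. The fibroblast list had -0.38 and -0.37 against -0.23, 0.03 and 0.04, and the smooth muscle list -0.51 and -0.37 against -0.36, 0.32 and -0.02. The smooth muscle gap was narrow, with -0.375 in pair 5 next to -0.356 in pair 2. The neutrophil list had -0.05 and -0.0076 against 0.39, 0.36 and 0.21, and the cardiac and skeletal muscle list -0.99 and -0.36 against 1.85, -0.17 and 0.05. The marker lists that were higher in pairs 1 and 5 were red cell, at 1.29 and 1.33 against 0.69, 0.50 and 0.30, and T and B lymphocyte, at 0.11 and 0.17 against -0.04, -0.39 and -0.35. The macrophage and adipocyte lists overlapped. Their part in the values of Ptgs2, Saa3 and Il6 was not tested.

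**Figure D4:**
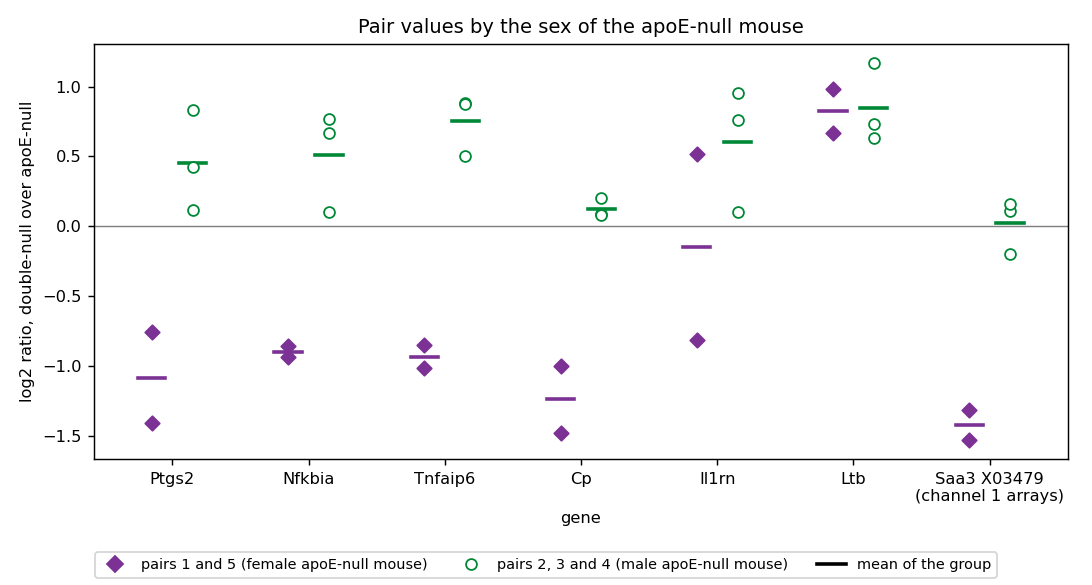
Log2 ratio of double-null over apoE-null (vertical axis) of each mouse pair for 7 probes (horizontal axis), with pairs 1 and 5, where the apoE-null mouse was female, left of pairs 2, 3 and 4, where it was male, and a bar at each mean. For Saa3 probe X03479 the single channel 1 arrays are drawn. Ptgs2, Nfkbia, Tnfaip6 and Cp are below 0 in pairs 1 and 5 and above 0 in the others, and Ltb overlaps.

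Around the members, 9 lists of the same pathways held 208 genes, of which 174 were on the array, 116 had any value and 77 could be tested. In the fit over 4299 genes (0.814% called), 2 of the 77 rose in double-null aortas, 2 fell and 73 did not pass. The 2 that fell were Myd88 and Lcn2, a siderophore-binding acute phase protein of neutrophils and macrophages, which had a mean log2 ratio of -1.25 ± 0.26 (n = 3 pairs, limma adjusted p = 0.0434), with no dye effect called (limma adjusted p = 0.196). The 2 that rose were Socs1, the inhibitor of cytokine receptor kinases, at 0.81 ± 0.24 (n = 5 pairs, limma adjusted p = 0.0321), and Il13, a type 2 cytokine, at 0.86 ± 0.35 (n = 5 pairs, limma adjusted p = 0.0471). Both had the orientation pattern of Ltb: Socs1 averaged 2.35 with the double-null mouse in channel 2 and -0.74 with it in channel 1 (limma adjusted p for the dye effect 1.59e-06), and Il13 averaged 3.20 and -1.48 (2.14e-07). All 3 genes of the members and lists that rose thus had ratios of opposite sign in the orientations. Of the tested list genes 51 (66.2%) were below 0, against 58.3% of all genes tested, whose median was -0.04. Once each array's median was subtracted, 48 of the 77 list genes were below 0, beside 51.7% of all genes. Once arrays were also scaled, 43 of the 77 were below 0, beside 51.5% of all genes. With array medians subtracted the share in the lists stayed above that of all genes, and once arrays were also scaled it came close to it. Neither share was tested.

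The list of IL-1 and IL-18 components had no call among 5 tested genes and a median of -0.14. Il18bp, the decoy that binds interleukin-18, stood at -0.86 ± 0.63 (limma adjusted p = 0.195), Casp4, an inflammatory caspase, at -0.65 ± 0.48 (0.242) and the receptor Il1r1 at -0.14 ± 0.30 (0.727), each over 5 pairs. Among 13 tested Toll-like receptor and adaptor genes (median -0.08), Myd88 was the single call. Ly96, the co-receptor of Tlr4, had -0.50 ± 0.44 (n = 5, limma adjusted p = 0.409), and Tlr2 had -0.47 ± 0.13 (n = 3, limma adjusted p = 0.428). The 7 tested NF-kB subunits, kinases and inhibitors (median -0.13) had no call. Relb, an NF-kB subunit, had -0.31 ± 0.16 (limma adjusted p = 0.440), Tnip1, an inhibitor, -0.30 ± 0.13 (0.445), and Ikbkb, the kinase that marks the inhibitors for decay, -0.13 ± 0.14 (0.678), over 5 pairs each.

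No gene passed among the 12 tested TNF superfamily components, whose median of -0.03 became 0.0011 once array medians were subtracted. Tnfrsf11b, the decoy receptor osteoprotegerin, had -0.33 ± 0.38 (n = 5, limma adjusted p = 0.531), Fas, a death receptor, 0.16 ± 0.12 (n = 4, 0.674), and Tnfsf13, a B cell factor, -0.22 ± 0.42 (n = 4, 0.676). Of 5 tested IL-6 family genes (median -0.16) only Socs1 passed. Osmr, the oncostatin M receptor, had -0.70 ± 0.65 (limma adjusted p = 0.343) and the feedback inhibitor Socs3 -0.16 ± 0.25 (0.673), both over 5 pairs. The 7 tested colony-stimulating factor genes (median -0.17) had no call, with Csf2ra at -0.32 ± 0.27 (n = 5, limma adjusted p = 0.504), and so had the 10 tested prostanoid and leukotriene genes (median -0.07), which surround Ptgs2. Tbxas1, thromboxane synthase, had -0.60 ± 0.48 (n = 5, limma adjusted p = 0.294), and Ptges2, a prostaglandin E synthase, 0.40 ± 0.81 (n = 4, 0.649).

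The acute phase list, the family setting of Saa3, had a median of -0.42 over 5 tested genes, of which only Lcn2 passed. The median was -0.16 without pair 1 and -0.28 without pair 5. Serpina3n, a protease inhibitor, had pair values of -2.12, -0.43 and -1.03 in pairs 1, 3 and 5 (mean -1.19 ± 0.86, limma adjusted p = 0.276), and Cp averaged -0.42 ± 0.77 (n = 5, limma adjusted p = 0.599). The 13 other interleukins and mediators had a median of 0.08, with Il13 as their single call. Il9 had 0.33 ± 0.38 (n = 5, limma adjusted p = 0.531), and S100a9, a neutrophil alarmin, 0.34 ± 0.60 (n = 3, limma adjusted p = 0.652).

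**Figure D5:**
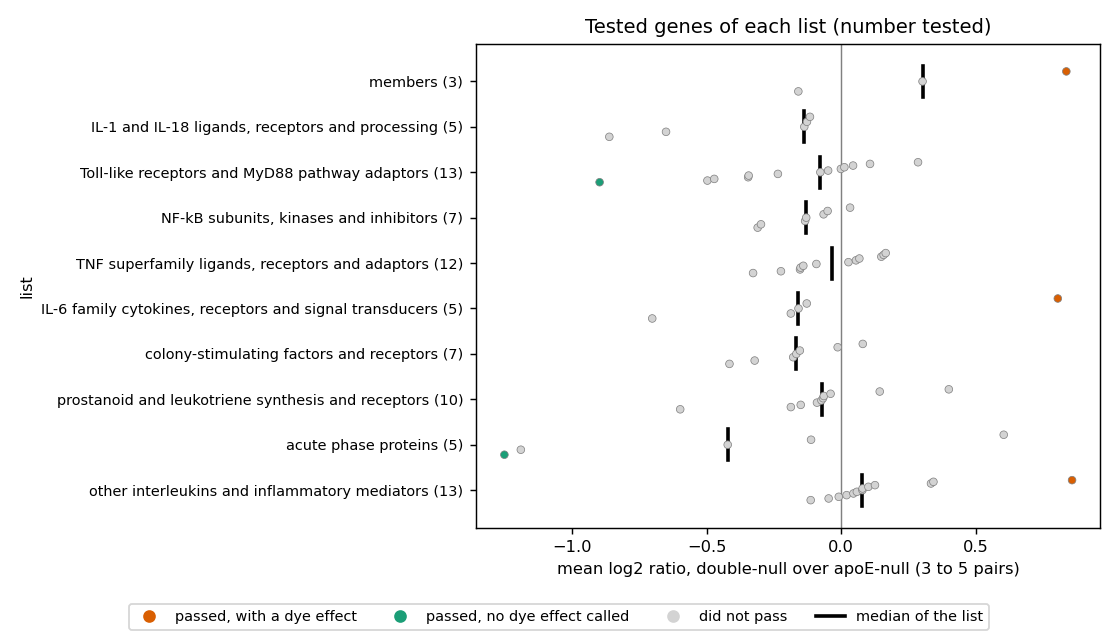
Mean log2 ratio of double-null over apoE-null (horizontal axis) of every tested gene of the members and of 9 pathway lists (vertical axis, number tested in brackets), 1 point per gene, with a bar at each median. Coloured points passed an adjusted p of 0.05. Ltb, Socs1 and Il13 passed with a dye effect at 0.81 to 0.86, and Myd88 and Lcn2 passed without one at -0.90 and -1.25.

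Marker lists of cell types that produce or receive these mediators held no gene past the threshold. Of the T and B lymphocyte markers, the cells that make Ltb, 12 of 20 on the array had any value and 4 could be tested, with a median of -0.08. The macrophage list had the most tested genes, 18, with a median of -0.44, and pair medians of -1.07, -0.38, -0.68, -0.38 and 0.19 in pairs 1 to 5. Of these 18 genes, 17 were below 0 and 1 above, beside 58.3% of all tested genes below 0. An unadjusted limma p under 0.05 was reached by 10 of the 18, beside 407 of 4299 genes. The neutrophil list had a median of 0.17 (5 tested), smooth muscle -0.20 (7 tested), endothelial -0.12 (9 tested), fibroblast -0.20 (9 tested) and red cell 0.82 (2 tested). Of the smooth muscle markers, which define arterial wall, 8 of the 9 on the array had a value. Adipocyte markers had a median of 0.53 (9 tested), at 2.23 in pair 1 and 1.18 in pair 4 against -0.55 to -0.24 in the other pairs, and cardiac and skeletal muscle markers -0.11 (4 tested), at 1.85 in pair 2. The part of these cells in the members' values was not tested.

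Among 3298 other probes with a single symbol and 10 values, those closest to each fully read member were found by the root mean square difference over the 10 arrays. Closest to Ptgs2 were Nfkbia (0.299), Net1 (0.302), an exchange factor of a small GTPase, and Tnnt2 (0.320), a troponin of heart muscle. Closest to Ltb were Socs1 (0.377), Rasgef1a (0.421) and Fndc4 (0.423), and closest to Il1rn were Mthfd2 (0.408), a mitochondrial folate enzyme, Fxyd5 (0.416) and Jpt1 (0.452). The distance was taken over single arrays, so the difference of Ltb between the orientations enters it, and its closest probes are not a likeness between genotypes alone. The points share the same 10 arrays and RNA samples, and the likeness is given as a description.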

How the data were processed

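RNA of the aortic arch was amplified with T7 polymerase, labelled and hybridised on 2-colour arrays, read with a GenePix scanner and analysed in GeneSpring, per the labels. The authors deposited log2 ratios, apoE-null over double-null per the titles; the sources used here give neither the normalization nor the reason for blank cells. A lowest value of -6.64, which is log2(0.01), stood in 10 cells. All value columns were used. Signs were reversed, the 2 arrays of a pair averaged, and probes with at least 3 pair values tested against 0 with limma 3.58.1 (lmFit, eBayes, two-sided) in R 4.3.3, adjusted by Benjamini-Hochberg over all tested probes or genes. The fit was tried on simulated pair values with a normal spread, drawn independently for each probe and without a dye effect. That trial does not bear on calls with a dye effect, such as Ltb. Of the probes, 12143 had 1 gene symbol, 12009 of them matched by Entrez identifier, 49 had several and 1680 had none. Mice are numbered in the labels, so a p-value here rests on differences among pairs of separate animals.

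The members and lists were chosen with earlier results of these data known. Named were all members, Myd88, list genes past the threshold, up to 3 list genes with the smallest p, and the 3 closest probes of each fully read member. Receptors, Tnfaip6, Nfkbia, Xist and the genes of the closing section were added after values were seen, as was the comparison by the sex of the apoE-null mouse, which therefore does not test the members that prompted it. Alternatives were leaving out each pair, single orientations, arrays with the pair as a block, an ordinary linear model, robust moderation, centring, scaling, floor removal, other filters, male pairs alone and a looser threshold. How far signals stood above background is not known, and the array number limits the precision.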

Additional observations from a re-analysis of the deposited data

Results flagged for a closer look

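Ltb differed between the orientations by 3.70 on the log2 scale (double-null in channel 2 minus double-null in channel 1), with every array of the first above 0 and every array of the second below it. Its limma adjusted p for the dye effect was 1.51e-07 (n = 5 pairs).

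Ptgs2 differed by -1.54 between the pairs with a female and those with a male apoE-null mouse. Both pairs with a female apoE-null mouse lay below 0 and all 3 with a male one above it. The split was chosen after these values were seen, and the difference was not tested on other data.

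The median of the endothelial markers in pair 1, -0.81, lay apart from those of the other 4 pairs by Dixon's criterion. It was the only flag among 30 groups checked, which held array values of members, pair values of members or list medians over pairs. Chance marks about 1 group in 20.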

How the results depend on the processing

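The count of called probes, 38, was 0 without pair 4 (325 at an unadjusted p under 0.05) and at most 25, without pair 5, with 11, 2 and 5 without pairs 1, 2 and 3. Fewer pairs enter these fits, and the fit of the 3 male pairs alone, with fewer still, called 55. The count was 59 with channel 1 arrays alone, 119 with channel 2 arrays alone, 0 in an ordinary linear model (415 at an unadjusted p under 0.05) and 74 at an adjusted p of 0.10. The other 9 settings, the male pairs among them, gave 27 to 55. The direction of the calls moved as well. The 29 higher and 9 lower calls of the main fit became 14 and 21 with the pair as a block. They were 26 and 29 in the male pairs alone, and 9 and 16 without pair 5. Channel 1 arrays alone gave 21 and 38, and channel 2 arrays alone 105 and 14. Higher calls stayed the more common under centring, scaling, other filters, robust moderation and floor removal. The causes were not tested.

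Ltb kept its direction but lost its call without each pair (0.75 to 0.89), with the pair number as a replicate block over single arrays (0.84, limma adjusted p = 0.669, 35 probes called) and in the ordinary model (0.84, adjusted p = 0.248). In channel 1 arrays alone it had the other sign, at -1.01. The cause was not tested. Its adjusted p ran between 6.19e-05 and 0.669 over 19 alternatives. The block rests on partner arrays that hold the same mice, with a consensus correlation of 0.342.

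Ptgs2 had the other sign without pair 1 (0.15, against a lowest value of -0.41 with another pair left out) and in the male pairs alone (0.46), and passed in no setting (adjusted p between 0.412 and 0.994). Il1rn stayed above 0 and without a call in all 19 settings (0.14 to 0.58 with a pair left out, adjusted p between 0.226 and 0.863). The dye effect count, 231, lay between 110 and 222 with a pair left out (110 without pair 1 and 145 without pair 3). The dye effect of Il1rn ran between -0.0227 and 0.0558 with a pair left out, and that of Ptgs2 between -0.16 and 0.0057, both around 0. For Ltb it ran between 1.77 and 1.91.

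Saa3 probe X03479, at -1.55 over its 2 pairs, was -0.55 in channel 1 arrays alone (limma adjusted p = 0.377) and -0.61 where either array sufficed (0.490), since pairs 2 to 4 then enter; with 2 pair values allowed its adjusted p was 0.0891, and that of probe NM_011315 was 0.243. Tnf, Tnfaip2 and Il1b passed in neither of the first 2 settings, with adjusted p between 0.767 and 0.939. With a pair left out, list medians moved as follows. Those of the acute phase genes ran between -0.58 and -0.16, IL-1 and IL-18 between -0.37 and -0.13, Toll-like receptors between -0.16 and -0.06, NF-kB between -0.23 and -0.06, the IL-6 family between -0.24 and -0.07, colony-stimulating factors between -0.22 and -0.04, and prostanoids between -0.12 and -0.0012. Those of the TNF superfamily (-0.14 to 0.04) and the other interleukins (-0.0035 to 0.20) fell on both sides of 0, as did those of the endothelial (-0.23 to 0.03), neutrophil (-0.0035 to 0.24), lymphocyte (-0.09 to 0.03) and muscle (-0.35 to 0.17) markers. The adipocyte median was 0.09 without pair 1.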

Other observations

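Not every gene of these pathways was lower in the pairs with a female apoE-null mouse. Casp1, the caspase that matures interleukin-1 beta, averaged 0.55 in those pairs and -0.56 in the pairs with a male apoE-null mouse (difference 1.11). Orm1, an acute phase carrier protein, had pair values of 2.40 and 0.98 in pairs 1 and 5. In pairs 2, 3 and 4 Orm1 had -0.06, -1.22 and 0.94 (difference 1.80). Ptgis, prostacyclin synthase, averaged -0.65 and 0.28 (difference -0.93), and S100a8, an alarmin of neutrophils, -0.48 and 0.40 (difference -0.87). Il6ra and Stat3, the receptor and transcription factor of Il6 signalling, differed by -0.81 and -0.66. These genes were picked after the values were seen, so the differences are a description and no test of them is given.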
